A study of Mus musculus with 6 samples.

Results

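The genes of the aminoacyl-tRNA synthetases were described in the wild-type Lewis line of mouse lung carcinoma, kept in a stem-like state. Members were all rows of the deposited FPKM tables (fragments divided by a gene's exon length and by the library's read total) whose symbol names a synthetase in a list of 37 names. Mars1 and Mars name 1 gene, so 36 of the 54446 listed genes were found. Of them 20 encode cytosolic enzymes and 15 encode mitochondrial enzymes, and Lars2, also mitochondrial, was kept apart for the reason given below. All 36 had a mean of at least 1 FPKM over the libraries and were among the 11915 genes tested. RNA was sequenced from 3 libraries of untreated cells (Control) and 3 of cells exposed to RT-MPs for 48 h. The labels neither expand the name RT-MPs nor give its dose or source, and both groups were kept in DMEM with 2% serum. No label says that replicates were separate cultures, so the p-values below cover only the spread between these libraries, which may be technical.

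A synthetase uses ATP to join an amino acid to the tRNAs that read its codons, and the charged tRNA then carries it to the ribosome. The cytosol and the mitochondrion are mostly served by separate enzymes, both encoded in the nucleus, and the mitochondrial ones, whose symbols end in 2, are imported. Uncharged tRNA activates the kinase GCN2, and the transcription factor ATF4 then raises many cytosolic synthetase genes through short promoter elements called CARE.

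The read totals implied by the FPKM values ranged from 16951044 to 21876573 per library. RT-MPs library 3 stood apart from the rest: the sum of its FPKM was 585752, whereas the other 5 had sums of 296966 to 303798. Over all tested genes the median log2 change, RT-MPs against Control, was −0.09, and it was 0.00 after median-ratio scaling, so a change of a synthetase gene is to be read against that shift. The summed level of 10 marker genes of blood, immune and endothelial cells was 0.129 to 0.249 FPKM in Control and 0.216 to 0.506 in RT-MPs, and no marker passed 0.438 FPKM in any library. In each library 6 or 7 of the 10 were at 0, and Cd3e, Adgre1, Hbb-bt and Hba-a1, markers of T cells, macrophages and red cells, were at 0 in every library.

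In treated cells all 20 cytosolic synthetase genes had a lower mean, by a median log2 change of −0.24. Wars and Gars fell by the test over all genes, none rose, and 18 were not called. Of the 15 mitochondrial genes 12 had a lower mean and 3 a higher one, with a median of −0.16, and none was called. The test was limma on log2(FPKM + 1) with Benjamini-Hochberg adjustment over all 11915 genes and a threshold of 0.05. It called 3.99% of all tested genes in either direction and 2.7% lower in RT-MPs. A log2 change below 0 was found in 66.9% of all tested genes. At an unadjusted p under 0.05 there were 15 cytosolic and 4 mitochondrial genes, against 27.3% of all tested genes, a share that the 4 of 15 mitochondrial genes are near. Median-ratio scaling brought the cytosolic median to −0.14 with 16 of 20 genes lower, and the mitochondrial median to −0.09 with 9 of 15 lower. Without RT-MPs library 3 the mitochondrial median was also −0.09, against −0.06 for all tested genes.

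Mean levels of the cytosolic genes in Control ran from 13.5 FPKM for Farsa to 127 FPKM for Nars. Summed over the 20, they were 885, 865 and 883 FPKM in Control libraries 1 to 3 and 788, 754 and 674 FPKM in RT-MPs libraries 1 to 3. All RT-MPs libraries thus lay below all Control libraries in this sum, and RT-MPs library 3 was the lowest. The sum over the 15 mitochondrial genes was 72.6, 72.3 and 72.7 FPKM in Control and 65.8, 67.3 and 63.5 FPKM in RT-MPs. Here too the groups did not overlap. In bulk RNA, less RNA per cell and fewer expressing cells cannot be told apart.

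**Figure D1:**
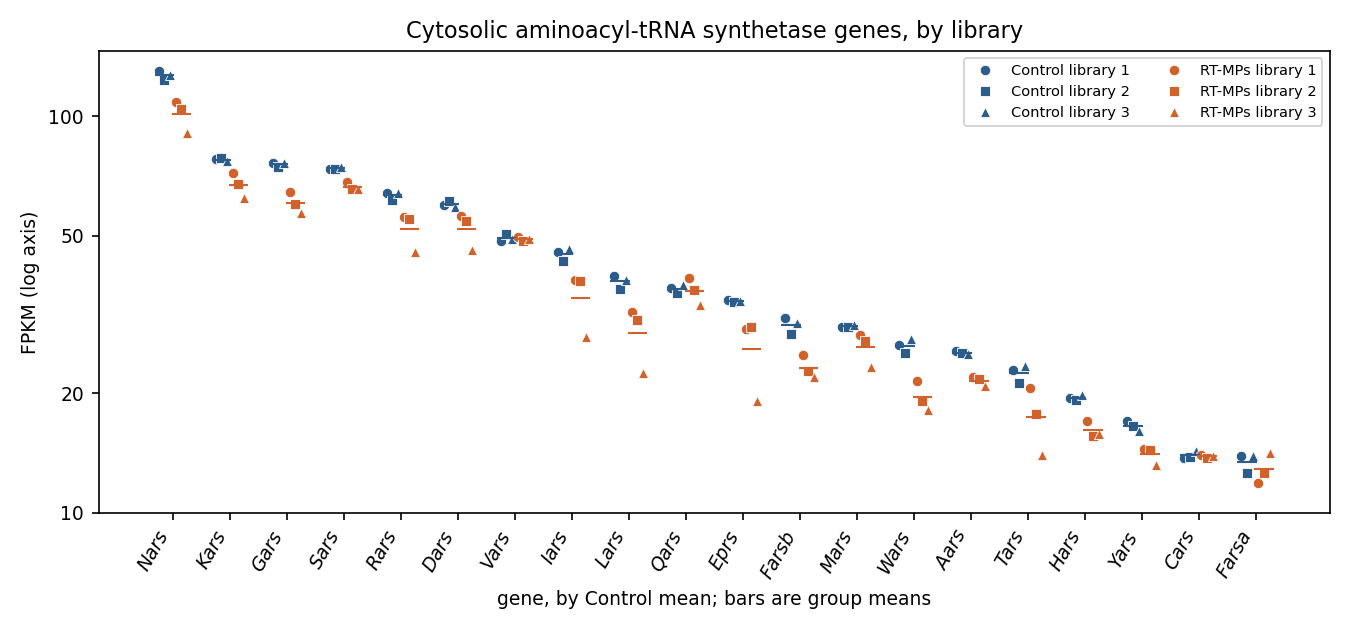
FPKM of the 20 cytosolic synthetase genes on a log axis, with 1 point per library (Control blue, RT-MPs orange) and a bar at the mean of each group. Nars is highest, at 123 to 129.7 FPKM in Control, Farsa and Cars are lowest, and in 16 genes all 3 orange points lie below all 3 blue points.

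All RT-MPs values lay below all Control values in 16 of the 20 cytosolic genes, the exceptions being Farsa, Qars, Vars and Cars. This held for 30.4% of all tested genes on the deposited scale. After median-ratio scaling it held for 14 of the 20, against 18.2% of all tested genes, and Qars, Vars and Cars then lay wholly above Control. RT-MPs library 1 was below every Control library in 17 of the 20 genes, library 2 in 18 and library 3 in 17. RT-MPs library 3 was the lowest treated library in 15 of 20. These counts by library are on the deposited scale, and the matching shares of all tested genes were not counted. The factor by which median-ratio scaling divides was also lowest in RT-MPs library 3, at 0.924, against 0.984 to 1.04 in the others.

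Wars encodes tryptophanyl-tRNA synthetase, a class I enzyme whose gene is induced by interferon in human cells. It lies on chromosome 12 from 108860030 to 108894174 on the minus strand (mm10). Its level was 26.5, 25.3 and 27.4 FPKM in Control libraries 1 to 3 and 21.5, 19.1 and 18.1 FPKM in RT-MPs libraries 1 to 3. The highest treated library was thus below the lowest control. The mean went from 26.4 ± 1.07 to 19.6 ± 1.71 FPKM (SD, n = 3 per group), a log2 change of −0.42 (SE 0.08, limma adjusted p = 0.0418).

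Gars encodes glycyl-tRNA synthetase, a class II enzyme that serves both compartments from a single gene. It lies on chromosome 6 from 55038007 to 55079500 on the plus strand. Its level was 76.1, 74.5 and 76.1 FPKM in Control and 64.6, 59.96 and 56.9 FPKM in RT-MPs. All treated libraries were below all controls, with RT-MPs library 1 nearest to them. The mean went from 75.6 ± 0.950 to 60.5 ± 3.87 FPKM (SD, n = 3 per group), a log2 change of −0.32 (SE 0.06, limma adjusted p = 0.0477).

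Both calls were close to the threshold. With limma, neither gene was called after median-ratio scaling (adjusted p = 0.0527 for Wars and 0.0761 for Gars), nor when any 1 of Control libraries 1, 2 and 3 or RT-MPs libraries 1 and 2 was left out (0.0633 to 0.221 and 0.0671 to 0.236). The same was true with no filter on low genes, after either rescaling to a common sum and with trend=FALSE, at limma adjusted p of 0.05004 to 0.583. Quantile normalization ended the call of Gars (limma adjusted p = 0.0536). Both were called without RT-MPs library 3, at log2 changes of −0.36 (adjusted p = 0.0137) and −0.28 (adjusted p = 0.0110).

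The other cytosolic genes outside the multisynthetase complex, an assembly that binds several of these enzymes to one another, included Farsb, which had the smallest p among them. It encodes the beta chain of phenylalanyl-tRNA synthetase, and its level was 31.0, 28.2 and 30.1 FPKM in Control and 25.0, 22.7 and 22.0 FPKM in RT-MPs. Its groups did not overlap, yet it just missed the threshold, at a log2 change of −0.34 (SE 0.07, limma adjusted p = 0.0504). Farsa, the alpha chain of the same enzyme, had a log2 change of −0.06 (SE 0.08), and RT-MPs library 3 was its highest library, at 14.1 FPKM. Nars, the asparaginyl enzyme and the most abundant synthetase gene, was at 129.7, 123 and 127 FPKM in Control and 109, 104 and 90.5 FPKM in RT-MPs, a log2 change of −0.32 (limma adjusted p = 0.0682). Its 3 treated libraries were all below its controls.

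The threonyl gene Tars was at 22.9, 21.3 and 23.4 FPKM in Control and at 20.6, 17.8 and 14.0 FPKM in RT-MPs. Its treated libraries differed more from each other than its controls did, and its log2 change of −0.37 was not called (SE 0.13, limma adjusted p = 0.138). The histidyl gene Hars (−0.26), the alanyl gene Aars (−0.22), the tyrosyl gene Yars (−0.22) and the seryl gene Sars (−0.15) had no overlap between groups and adjusted p from 0.0614 to 0.125 by limma. The valyl gene Vars and the cysteinyl gene Cars both had a log2 change of −0.01 (SE 0.05 each). In Vars the 6 libraries ranged from 48.5 to 50.4 FPKM and in Cars from 13.8 to 14.3 FPKM, and the groups overlapped in both. In all, 12 enzymes outside the complex had a median log2 change of −0.24, 2 of them called and 9 with no overlap. Of all tested genes 2.7% were called lower and 30.4% lay wholly below Control. After median-ratio scaling 0 of the 12 were called and 7 lay wholly below Control, against 18.2% of all tested genes.

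The 8 tested genes of complex enzymes also had a median of −0.24. None was called, against 2.7% of all tested genes called lower, and 7 had no overlap, against 30.4%. After median-ratio scaling 7 lay wholly below Control, against 18.2%. Lars, the leucyl enzyme, had the lowest log2 change of all members, −0.43 (SE 0.13, limma adjusted p = 0.102). Its level was 39.5, 36.8 and 38.7 FPKM in Control and 32.1, 30.6 and 22.6 FPKM in RT-MPs. Eprs, which joins the glutamyl and prolyl enzymes in 1 protein, was at 34.4, 34.1 and 34.2 FPKM in Control and 29.0, 29.3 and 19.2 FPKM in RT-MPs. In both genes RT-MPs library 3 was far below the other treated libraries, which were themselves below every control.

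Iars, the isoleucyl gene, had the same order of libraries within RT-MPs as Lars, at 45.4, 43.2 and 46.1 FPKM in Control and 38.6, 38.4 and 27.7 FPKM in RT-MPs. Without RT-MPs library 3 the log2 changes were −0.28 for Lars, −0.22 for Eprs and −0.22 for Iars, and all 3 were called (limma adjusted p = 0.0128, 0.0107 and 0.0171). Kars, the lysyl gene, which like Gars serves both compartments, was at 77.8, 78.2 and 77.0 FPKM in Control and 71.9, 67.5 and 62.2 FPKM in RT-MPs. Its log2 change of −0.21 was not called (limma adjusted p = 0.115), though its groups were apart. The arginyl gene Rars (−0.28), the aspartyl gene Dars (−0.21) and the methionyl gene Mars (−0.17) were not called and did not overlap. Qars, the glutaminyl gene, was at −0.02 (SE 0.07) and its groups overlapped.

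The RNA levels of the complex's scaffold genes, which do not encode synthetases, were read from the same fit. Aimp1 was at a log2 change of −0.00 (SE 0.06), Aimp2 at −0.06 (SE 0.07) and Eef1e1 at −0.14 (SE 0.06), and none of the 3 was called. By catalytic class, which sets the fold of the active site, 1 of 9 class I and 1 of 10 class II cytosolic genes was called. Of all tested genes 2.7% were called lower. The medians of the classes were −0.22 and −0.24, against −0.09 for all tested genes.

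Of the 6 libraries, leaving out RT-MPs library 3 moved the number of calls most. Without it 13 of the 20 cytosolic genes were called lower and none higher, with a median of −0.20. In that fit 15.1% of all tested genes were called lower, and their median log2 change was −0.06. Of the 15 mitochondrial genes 3 were then called lower, namely Iars2, Rars2 and Pars2. When limma weighted the libraries by their spread, 15 cytosolic and 6 mitochondrial genes were called lower, against 27.7% of all tested genes, and no synthetase gene was called higher, against 10.8%.

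**Figure D2:**
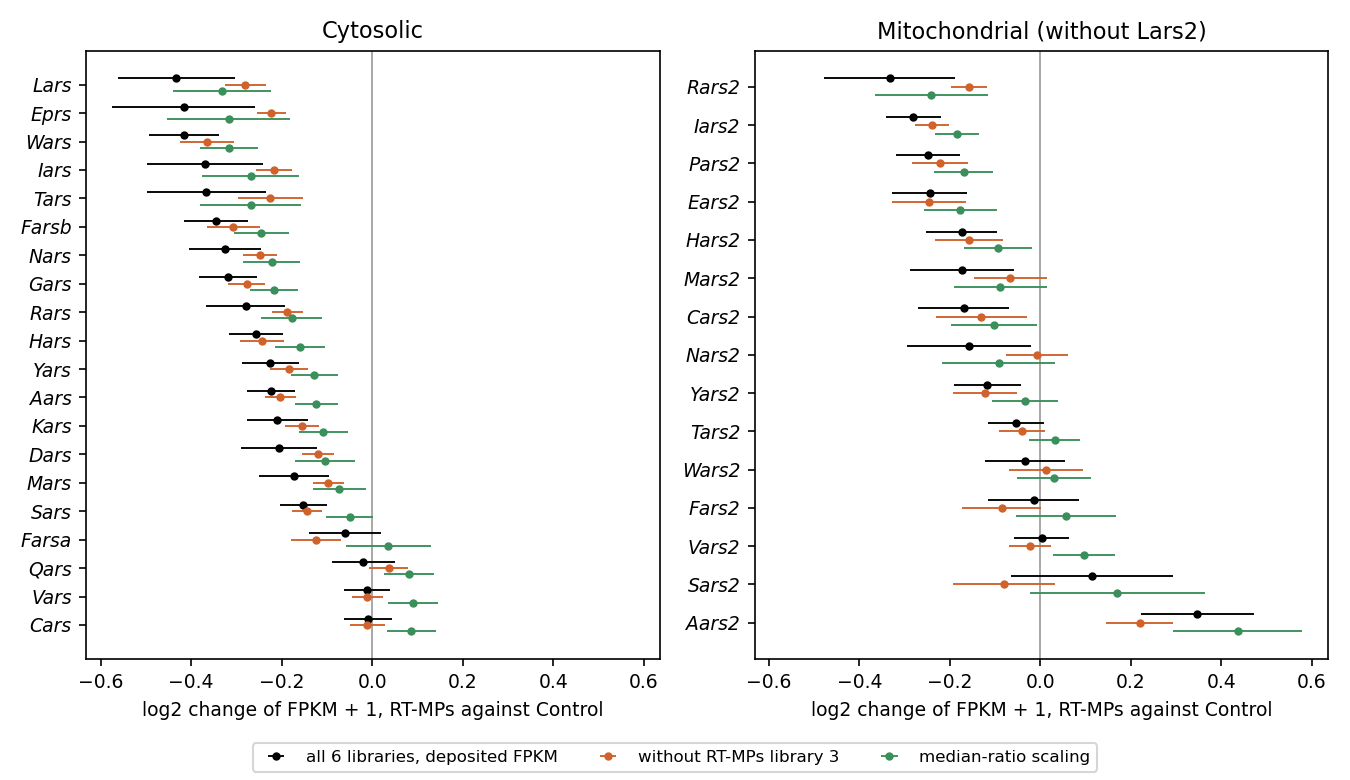
Log2 change of FPKM + 1, RT-MPs against Control, for each synthetase gene (points, bars are 1 SE of the limma fit), from all 6 libraries (black), without RT-MPs library 3 (orange) and after median-ratio scaling (green). Left, cytosolic genes, all at or below −0.01 in black; right, mitochondrial genes, of which Aars2 lies farthest to the right at 0.35.

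RT-MPs library 3 was lower than the mean of RT-MPs libraries 1 and 2 by a median log2 difference of −0.16 in the cytosolic genes, −0.05 in the mitochondrial genes and −0.09 in 10297 tested genes with a coding transcript. Over those 10297 genes this difference had a Spearman correlation of −0.56 with the length of the longest coding transcript, given as a description since genes share the libraries. Over the 20 cytosolic and the 15 mitochondrial genes it was −0.26 in each. The part of transcript length in the values of library 3 was not tested.

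Among the mitochondrial genes Iars2, the isoleucyl enzyme, was the most abundant and had the smallest p. It was at 15.9, 15.96 and 16.4 FPKM in Control and 13.6, 13.3 and 12.3 FPKM in RT-MPs. The groups were apart, and its log2 change of −0.28 just missed the threshold (SE 0.06, limma adjusted p = 0.0563). Rars2, the arginyl enzyme, was at 9.83, 9.96 and 10.1 FPKM in Control and 8.84, 8.82 and 5.83 FPKM in RT-MPs. RT-MPs library 3 stood well below the other treated libraries, and the log2 change was −0.33 (SE 0.14, limma adjusted p = 0.197). Without that library it was −0.16.

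Pars2, the prolyl enzyme, was at 3.56, 3.95 and 3.77 FPKM in Control and 3.09, 3.06 and 2.86 FPKM in RT-MPs, a log2 change of −0.25 (limma adjusted p = 0.092). Ears2, the glutamyl enzyme, was at 2.35, 2.15 and 2.00 FPKM in Control and 1.73, 1.61 and 1.67 FPKM in RT-MPs, a log2 change of −0.25 (limma adjusted p = 0.123). In both genes the groups did not overlap. Hars2, the histidyl gene, which shares exon sequence with Hars on the opposite strand, was the fifth mitochondrial gene with no overlap below Control, at −0.17. These 5 of 15 are near the 30.4% of all tested genes that lay wholly below Control. After median-ratio scaling Hars2 overlapped, leaving 4 of 15 against 18.2%.

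Aars2, the alanyl enzyme, was the 1 mitochondrial gene whose treated libraries lay wholly above Control. Its level was 4.98, 5.30 and 4.75 FPKM in Control and 5.55, 6.46 and 8.12 FPKM in RT-MPs. RT-MPs library 3 was the highest, and the log2 change of 0.35 was not called (SE 0.12, limma adjusted p = 0.138). Without that library it was 0.22.

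Vars2, the valyl gene, was at 8.76, 8.83 and 8.61 FPKM in Control and 8.87, 8.29 and 9.12 FPKM in RT-MPs, with overlapping groups and a log2 change of 0.00. The seryl gene Sars2 was the least abundant member, with 45 to 100 reads per library, and RT-MPs library 3 was its highest at 1.78 FPKM. Its log2 change was 0.11 with all libraries and −0.08 without that one. The asparaginyl gene Nars2 was at 1.25 FPKM in RT-MPs library 3 and at 2.03 to 2.13 FPKM in the other 5, so that its log2 change of −0.16 was −0.01 without library 3. Cars2 and Mars2, the cysteinyl and methionyl genes, were both at −0.17, Yars2 for tyrosine at −0.12, Tars2 for threonine at −0.05, Wars2 for tryptophan at −0.03 and Fars2 for phenylalanine at −0.01, all with overlapping groups.

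**Figure D3:**
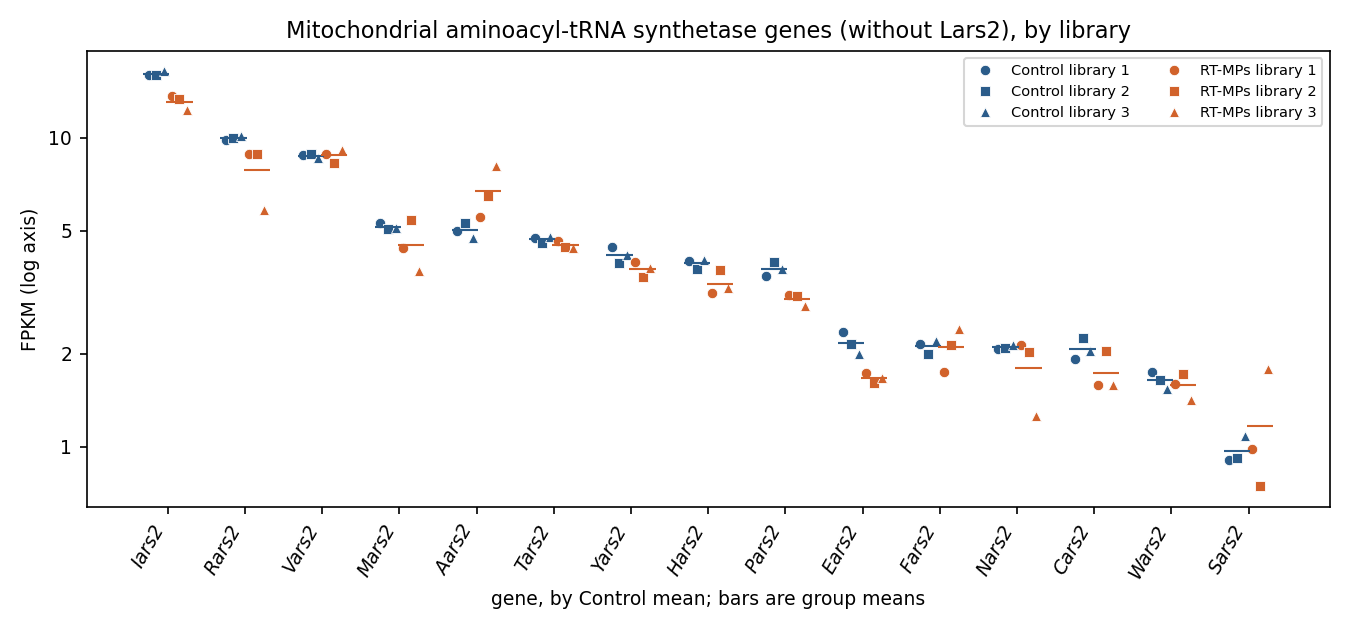
FPKM of the 15 mitochondrial synthetase genes without Lars2 on a log axis, 1 point per library (Control blue, RT-MPs orange), with a bar at each group mean. Orange points lie wholly below blue in Iars2, Rars2, Pars2, Ears2 and Hars2 and wholly above in Aars2.

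Cytosolic and mitochondrial enzymes for the same amino acid were then compared within each library, as the log2 ratio of their FPKM + 1. The added 1 keeps a library-wide shift from cancelling fully where the mitochondrial gene is low. Sars2, for one, had a Control mean of 0.966 FPKM and Wars2 of 1.64 FPKM. With 0.1 added instead, the cytosolic and mitochondrial median log2 changes were −0.25 and −0.21, against −0.24 and −0.16. Over 16 pairs the ratio was lower in RT-MPs in 13 and higher in 3, with a median difference of −0.14. In 4 pairs all treated libraries had a lower ratio than all controls. For alanine, the log2 ratio of Aars to Aars2 was 2.15, 2.06 and 2.19 in Control and 1.81, 1.61 and 1.27 in RT-MPs. The difference of the means was −0.57, beside log2 changes of −0.22 for Aars and 0.35 for Aars2, neither of which was called.

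For tryptophan, the log2 ratio of Wars to Wars2 was 3.33, 3.31 and 3.49 in Control and 3.11, 2.89 and 2.98 in RT-MPs, a difference of −0.38. The ratios of Farsb to Fars2 and of Tars to Tars2 differed by −0.33 and −0.31, again with no overlap. In the other 12 pairs the groups overlapped; for isoleucine, where both genes were lower, the difference was −0.09 and for valine −0.01. The pairs for cysteine, arginine and methionine had the higher ratios, at 0.16, 0.05 and 0.00. By a two-sided exact permutation test over libraries, the smallest p that 3 against 3 allow is 0.1, and with Benjamini-Hochberg adjustment over the 16 pairs no exact p was below 0.4. Eprs and Fars2 each enter 2 pairs, and all pairs share the 6 libraries.

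Averaged over genes, the cytosolic level exceeded the mitochondrial one by 2.95, 2.92 and 2.96 on the log2 scale in Control libraries 1 to 3 and by 2.90, 2.81 and 2.71 in RT-MPs libraries 1 to 3. The values did not overlap between groups, but they too are means of log2(FPKM + 1), so part of a library-wide shift stays in them. The members were chosen with earlier results known, so no p is given for this mean.

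**Figure D4:**
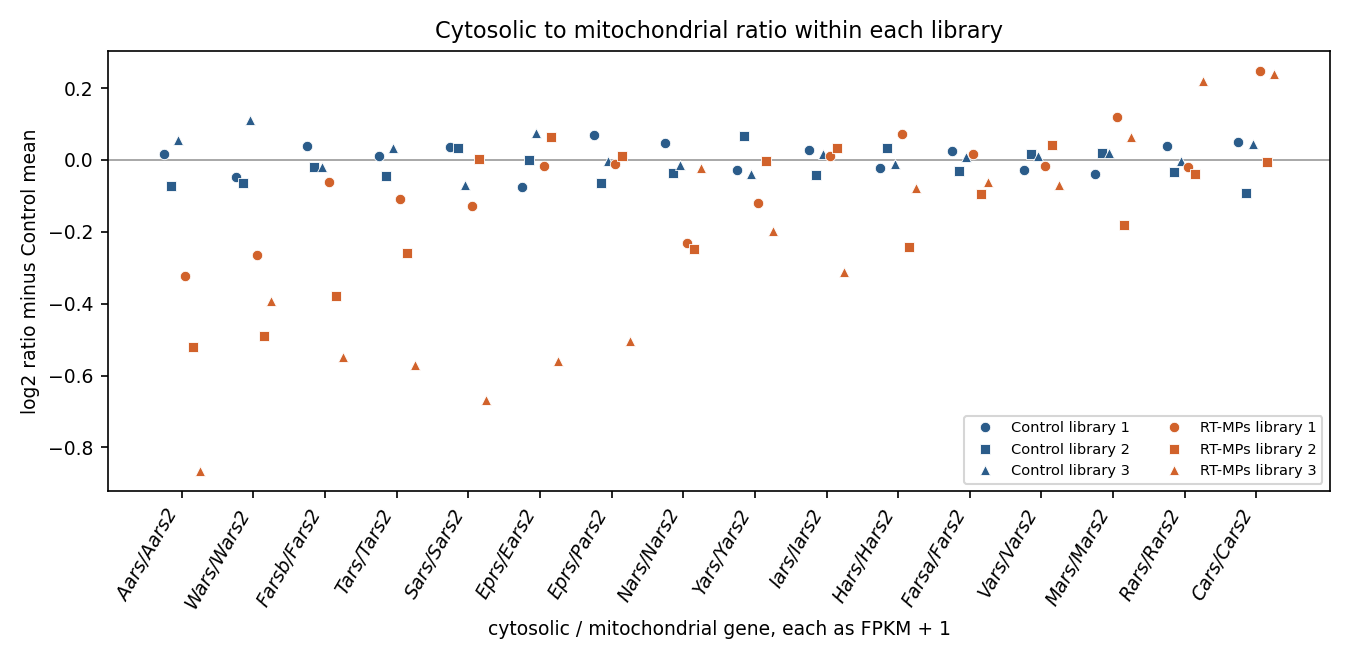
Log2 ratio of the cytosolic to the mitochondrial gene for the same amino acid in each library, minus the Control mean of that pair (Control blue, RT-MPs orange). The orange points lie below all blue points in Aars/Aars2, Wars/Wars2, Farsb/Fars2 and Tars/Tars2, and RT-MPs library 3 is lowest in most pairs on the left.

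Promoters were searched for the CARE core TGATGCAA because 11 of the cytosolic genes are often listed as ATF4 targets. These 11 had a median log2 change of −0.32, against −0.24 for all 20 cytosolic genes. Without RT-MPs library 3 the medians were −0.22 and −0.20. Of the 11, 2 were called lower, against 2.7% of all tested genes, and 10 lay wholly below Control, against 30.4%. After median-ratio scaling 0 of the 11 were called and 8 lay wholly below Control, against 18.2% of all tested genes. RefSeq promoter windows (GRCm38.p6, 250 bases before to 50 bases after the start) were matched for 27 members, 13 cytosolic, 13 mitochondrial and Lars2, by symbol. No window was used for Wars, Cars, Vars, Nars, Lars, Rars, Hars, Hars2 and Pars2. The core stood on either strand in 4 of 13 cytosolic windows, those of Aars, Iars, Tars and Yars, in 0 of 13 mitochondrial windows and in 1.03% of all 27025 windows. The 30 bases around it are shown for Iars, Tars and Yars because these genes share the core, which is in capitals (TTGCATCA is the core read on the opposite strand).
Iars, chr13:49682126-49682155, plus strand: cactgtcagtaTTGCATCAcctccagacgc
Tars, chr15:11399655-11399684, minus strand: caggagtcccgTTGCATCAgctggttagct
Yars, chr4:129189895-129189924, plus strand: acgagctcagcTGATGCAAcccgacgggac

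The relaxed motif TGATGNAA, which includes the core, was in 5 of 13 cytosolic windows, in 0 of 13 mitochondrial ones and in 4.51% of all windows. It added Gars, one of the called genes, and a further match in Aars. The 250 bases before the Gars start are shown with the match, on the opposite strand, in capitals.
Gars, chr6:55037751-55038000, plus strand: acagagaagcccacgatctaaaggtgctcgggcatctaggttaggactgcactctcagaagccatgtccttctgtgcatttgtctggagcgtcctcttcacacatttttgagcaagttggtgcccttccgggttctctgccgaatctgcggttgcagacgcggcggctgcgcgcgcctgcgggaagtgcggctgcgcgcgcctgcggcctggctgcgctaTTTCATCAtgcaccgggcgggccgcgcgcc

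The Gars match begins 30 bases before the start. The Tars core began 15 bases before the start, and those of Yars and Iars lay within the first bases of the transcript. In the 250 bases before the start alone, the core was in 2 of 13 cytosolic windows against 0.918% of all, and the relaxed motif in 3 of 13 against 3.91%. The 5 cytosolic genes with the relaxed motif had log2 changes from −0.37 to −0.22 (median −0.32) and those 8 without it from −0.42 to −0.02 (median −0.19). All 5 of the first group and 6 of the 8 had treated libraries wholly below Control, against 30.4% of all tested genes. After median-ratio scaling Tars of the first group and Sars of the 8 overlapped Control, and 18.2% of all tested genes lay wholly below it. Cytosolic genes without a window enter neither median, and their log2 changes ran from −0.43 (Lars) to −0.01 (Cars and Vars). A match describes these letters only. The interferon response element core was in the Qars window alone among the 26 windows of both kinds and in 3.99% of all windows. CCAATCA was in 3 of 13 windows of each kind, against 8.995% of all, and CCAAT, which it contains, in 7 of 13 cytosolic and 6 of 13 mitochondrial windows, against 41.1%.

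ATF4 and genes of its pathway were read from the same fit. Atf4 was at 241, 228 and 246 FPKM in Control and 205, 187 and 223 FPKM in RT-MPs, a log2 change of −0.22 that was not called (limma adjusted p = 0.143). The asparagine synthetase gene Asns (−0.35, limma adjusted p = 0.0676) and the feedback inhibitor gene Trib3 (−0.39, limma adjusted p = 0.0757) were not called either. Asns, Trib3 and Atf4 lay wholly below Control, as did 30.4% of all tested genes. After median-ratio scaling Atf4 (−0.11, limma adjusted p = 0.492) and Trib3 (−0.29, limma adjusted p = 0.190) overlapped Control. Ddit3, the CHOP gene, which shares exon sequence with Mars on the opposite strand, was at 0.05. None of the 10 tested integrated stress response genes was called by limma with all libraries. Their median log2 change was −0.11, against −0.09 for all tested genes, and −0.02 against 0.00 after median-ratio scaling. On the deposited scale 4 of them lay wholly below Control, against 30.4% of all tested genes. After median-ratio scaling 1 did, against 18.2%. Of the 10, 3 had an unadjusted p under 0.05, which is near the 27.3% of all tested genes. Without RT-MPs library 3, Atf4, Asns and Trib3 were called lower (limma adjusted p = 0.0184, 0.0290 and 0.0168), against 15.1% of all tested genes. With array weights 4 of the 10 were called lower, against 27.7% of all tested genes. With voom none was called.

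Lars2, the mitochondrial leucyl enzyme (chromosome 9, 123366927 to 123462666, plus strand), was at 15.5, 16.7 and 17.0 FPKM in Control and 17.4, 16.9 and 888.3 FPKM in RT-MPs. The FPKM of RT-MPs library 3 was 52.4 times the median of the other 5. It held 166980 reads on the gene, against 3428 to 4228 in each other library. With all libraries the log2 change was 1.93 (SE 1.44, limma adjusted p = 0.413), and without RT-MPs library 3 it was 0.06 (adjusted p = 0.399). It was called when libraries were rescaled to a common sum over all genes (TPM), at 1.65 (limma adjusted p = 0.00579), but not when the common sum was over named genes, at 1.91 (limma adjusted p = 0.412). The log2 ratio of Lars to Lars2 was 1.29, 1.09 and 1.14 in Control and 0.85 and 0.82 in RT-MPs libraries 1 and 2, where the groups were apart, and −5.24 in library 3.

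Noncoding genes referred to here as rRNA-like were high in the same library. Gm23935 was at 242123 FPKM in RT-MPs library 3, 75.4 times the median of the other 5 libraries, Gm15564 at 72.8 times, Gm26917 at 48.2 times and Gm42418 at 32.2 times. These genes were chosen after their values were seen. The rRNA genes of the mitochondrial genome, mt-Rnr1 and mt-Rnr2, were 3.32 and 3.27 times as high. The last exon of Lars2, beyond its last coding base, holds 72 bases (chr9:123462048-123462119) of which 71 are the same in a transcript of Gm15564. A transcript of AA474408 matches the same part of Lars2 over 97 bases at 94.8% identity. AA474408 was at 0 FPKM in RT-MPs library 3 and at most 0.0657 FPKM in any library. The spliced Gm15564 stretch, from the minus strand of chromosome 16, is shown because reads from such sequence could be assigned to Lars2 or to Gm15564.
Gm15564: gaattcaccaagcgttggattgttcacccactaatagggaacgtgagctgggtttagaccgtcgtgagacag

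The tables give 1 value per gene, so where in Lars2 the extra reads fell is not known, and the part of this stretch in the Lars2 value was not tested.

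**Figure D5:**
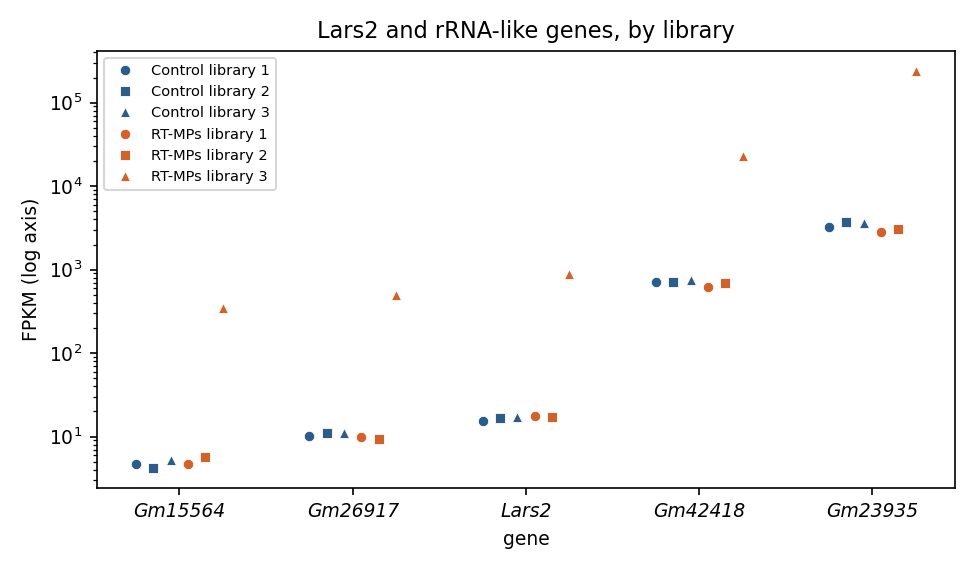
FPKM on a log axis of Lars2 and 4 rRNA-like genes, 1 point per library (Control blue, RT-MPs orange). The orange triangle, RT-MPs library 3, lies 32.2 to 75.4 times above the median of the other 5 libraries in each gene.

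Genes that complete charged mitochondrial tRNAs were tested in the same fit. Mitochondria make glutaminyl-tRNA by amidating glutamyl-tRNA, and none of the 4 genes for that step and for formylating methionyl-tRNA was called by limma, nor by voom on recovered reads. Gatc, a subunit of the amidating enzyme, had a log2 change of −0.49 (limma adjusted p = 0.103). It was called lower without RT-MPs library 3, at −0.32 (limma adjusted p = 0.0179), and with array weights, at −0.34 (limma adjusted p = 0.00414). Gatc was the only 1 of the 4 called in these fits, in which 15.1% and 27.7% of all tested genes were called lower. With all libraries the other subunits of the amidating enzyme, Gatb and Qrsl1, had log2 changes of −0.23 and 0.17. At an unadjusted p under 0.05 there were 2 of the 4, against 27.3% of all tested genes.

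Of the 36 synthetase genes, 10 share exon sequence with another protein-coding gene, 9 of them with a gene on the opposite strand, as Farsb does with Sgpp2 and Iars2 with Rab3gap2. Whether counting used the strand is not given in the sources used here, so reads of such partners cannot be told apart. Neither Wars nor Gars is among the 10.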

How the data were processed

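RNA libraries were made with a stranded KAPA mRNA kit from Trizol-extracted RNA, per the labels' protocols. HISAT2 and mm10 are named in the submitters' processing notes; which version, counter, annotation and strand setting were used is not given in the sources used here. Per gene and library, 1 FPKM value was deposited for 54446 genes. Groups came from the sample labels.

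Reads were recovered as FPKM times summed exon length (GENCODE M21, which holds 54409 of the identifiers) times a library total. At the best total, taken as the depth, 98.64% to 98.82% of the low values checked lay within 0.1 of a whole read; reads over genes summed to 102.573% to 102.647% of it. FPKM is relative to that total, so a few very abundant genes in a library depress its other values.

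The main test used limma 3.58.1 (R 4.3.3; lmFit and eBayes, trend=TRUE) on log2(FPKM + 1) for RT-MPs against Control. It ran over 11915 genes with a mean of at least 1 FPKM, two-sided, Benjamini-Hochberg adjusted over these genes, with a threshold of 0.05. The pseudocount understates changes of low genes. All members are named whatever their result; of other lists, called genes (at most 4 per list) and a few controls. The members and gene lists were chosen with earlier results of these data known. Alternatives covered pseudocount, filter, scaling, array weights, the replicate number as a block and each library left out; voom on recovered reads, and counting Lars2 among the mitochondrial genes, were added after seeing the data. Same-numbered Control and RT-MPs libraries did not deviate together (correlations 0.0959, −0.0820 and −0.0288), so the number was not taken as a pairing. Results for 1 related gene and 1 promoter sequence are not reported here. Promoters are from RefSeq (GRCm38.p6), searched on both strands. Tables were read with pandas 2.3.3, numpy 2.4.6 and scipy 1.17.1 under Python 3.11.15.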

Additional observations from a re-analysis of the deposited data

How the results depend on the processing

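The called counts depended on the settings more than the directions did. Over the whole table limma called 476 genes, and it called 26 with no filter, 46 after rescaling to a common sum (TPM), 0 with the replicate block, 4576 with arrayWeights, 2103 with median-ratio scaling and no RT-MPs library 3, 800 with voom on recovered reads (chosen after seeing the data), and 0 to 2548 with 1 library left out. Of the 20 cytosolic genes 2 were called. The count was 0 with no filter, median-ratio scaling, TPM, a common sum of named genes, trend=FALSE or the replicate block, 1 with quantile normalization, 15 with arrayWeights, 9 with median-ratio scaling and no RT-MPs library 3, and 0 to 13 with 1 library left out. It was 3 at a pseudocount of 5, at a mean of at least 5 FPKM and with voom. Of the 6 libraries, RT-MPs library 3 was the one whose removal raised it. Of the 15 mitochondrial genes 0 were called. The count was 1 at a mean of at least 5 FPKM, 6 with arrayWeights, 1 with median-ratio scaling and no RT-MPs library 3, 1 with voom, and 0 to 3 with 1 library left out.

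The cytosolic median of −0.24 was −0.14 with median-ratio scaling, −0.55 with TPM (where all tested genes had −0.38) and −0.13 with median-ratio scaling and no RT-MPs library 3. The mitochondrial median of −0.16 was −0.21 at a pseudocount of 0.1, −0.065 at a pseudocount of 5, −0.089 with median-ratio scaling, −0.44 with TPM, −0.072 with quantile normalization, −0.048 with median-ratio scaling and no RT-MPs library 3, −0.21 with voom, and −0.22 to −0.086 with 1 library left out. Counting Lars2 among them gave −0.14.

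Single genes near 0 changed sign. With median-ratio scaling Cars (0.087), Farsa (0.036), Qars (0.082), Vars (0.090), Fars2 (0.057), Tars2 (0.031) and Wars2 (0.030) were above 0. With quantile normalization the same 7 were, at 0.054, 0.010, 0.0044, 0.011, 0.093, 0.045 and 0.040. With TPM Sars2 was at −0.095 and Vars2 at −0.29, and with a common sum of named genes Vars2 was at −0.017. With arrayWeights Qars was at 0.067, Vars at 0.0031, Nars2 at 0.0015 and Sars2 at −0.012. With median-ratio scaling and no RT-MPs library 3 Cars (0.052), Qars (0.10), Vars (0.055), Nars2 (0.037), Tars2 (0.014) and Wars2 (0.054) were above 0 and Sars2 was at −0.048. With 1 library left out the ranges were −0.020 to 0.0062 for Cars, −0.023 to 0.0036 for Vars, −0.072 to 0.037 for Qars, −0.086 to 0.068 for Fars2, −0.024 to 0.038 for Vars2, −0.080 to 0.26 for Sars2 and −0.073 to 0.013 for Wars2. The cause of these changes was not tested.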

Other observations

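For tRNA maturation and export, upstream of charging, 20 genes were measured and 19 were tested. With limma 2 were called lower, against 2.7% of all tested genes, and none higher. Pop1, a protein subunit of ribonuclease P, was at 7.75, 6.27 and 7.26 FPKM in Control and 4.79, 4.71 and 4.73 FPKM in RT-MPs, so that the groups were apart. It fell by 0.49 on the log2 scale (SE 0.08, limma adjusted p = 0.0377). Rpp40, another subunit of that enzyme, which trims the leading end of precursor tRNAs, was at 3.19, 3.26 and 2.95 FPKM in Control and 2.25, 2.05 and 1.99 FPKM in RT-MPs. It fell by 0.42 (SE 0.08, limma adjusted p = 0.0414). After median-ratio scaling neither was called (limma adjusted p = 0.0527 and 0.0569), and both were called without RT-MPs library 3. Neither was called when any 1 of the other 5 libraries was left out (limma adjusted p = 0.0763 to 0.211). The other tested subunits of ribonuclease P went both ways, and none was called with all libraries. Rpp38 (−0.37), Pop7 (−0.21) and Rpp14 (−0.20) were lower, and Pop4 (0.09), Pop5 (0.09) and Rpp30 (0.04) were higher. The median log2 change of the 19 genes was −0.19, against −0.09 for all tested genes. After median-ratio scaling it was −0.10, against 0.00.

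Genes listed as elongation factors, only some of which bring charged tRNA to the ribosome, had no call among 5 cytosolic and 4 mitochondrial members. Their medians were 0.02 and −0.13. At an unadjusted p under 0.05 there were 0 of the 5 and 1 of the 4, against 27.3% of all tested genes. With arrayWeights 3 of the 5 cytosolic genes were called higher, against 10.8% of all tested genes, and 2 of the 4 mitochondrial genes lower, against 27.7%.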
